A study of Homo sapiens with 6 samples.

Results

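Open chromatin next to the centromeres was compared between NuMA-depleted and wild-type cells of HCT116, a colon cancer cell line. The assay was ATAC-seq, which tags accessible DNA with sequencing adapters carried by a transposase. Peaks of the 6 lists that shared 1 bp or more were merged. A merged region was taken as near a centromere when its midpoint lay within 3 Mb outside either edge of the 3 Mb gap that stands for the centromere in build hg19, or inside that gap. The gap positions were rounded to 0.1 Mb and covered 21 autosomes; chromosome 19 and the X chromosome were outside the rule. The positions were not checked against an hg19 genome here. All positions are in hg19. This gave 1490 regions of 58926 in all (2.53%). The last region inside the limit lay 2.999 Mb out on chromosome 20 at 32398862 to 32399205 and was called in all 6 libraries, with folds over local background from 8.07 to 11.8. The first one beyond it, at 32400323 to 32400932 on the same chromosome, was called in NuMA-depleted replicate 2 with a fold of 3.29.

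There were 3 NuMA-depleted libraries and 3 wild-type libraries. The sample titles name the depleted libraries AID, but the labels give neither the means nor the duration of the depletion. All libraries were of HCT116, and no other allele, agent or clone is labelled. Whether the replicates were separate cultures is not labelled, so p-values reflect the spread between libraries, which may be technical.

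Human centromeres lie in long arrays of alpha satellite, a tandem repeat on which the kinetochore assembles, and are flanked by pericentromeric heterochromatin, which is compact, rich in further satellites and segmental duplications, and poor in genes. The hg19 assembly leaves the arrays as gaps and holds only some copies of the repeats at their edges, so reads from many copies can be placed on few. NuMA is a nuclear protein that gathers microtubules at the mitotic spindle poles and lies in the nucleoplasm in interphase. The title of the series concerns its part in chromatin architecture and the binding of a linker histone.

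The peak lists held 38466, 45892 and 21783 peaks in NuMA-depleted replicates 1, 2 and 3, against 35502, 38685 and 32503 in wild-type replicates 1, 2 and 3. NuMA-depleted replicate 3 thus stood apart with the shortest list. Depth in reads is unknown. Relative depth was estimated from the peak statistics and scaled to a mean of 1. It was 1.07, 1.21 and 1.11 in NuMA-depleted libraries, against 0.975, 0.869 and 0.762 in wild-type ones. By this estimate every NuMA-depleted library was the deeper, although NuMA-depleted replicate 3 had the shortest list. The estimate assumes that the smallest peak width equals the caller's fragment length, which was not checked. The fold given for a peak is the authors' own enrichment of the summit over the local background, within 1 library. It follows a ratio with 1 added to both, which lowers it most where the background is low. The background ratio used here is the local background of a peak divided by the lowest background of its library, so that 1 is the lowest level in that library.

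Open regions were found next to all 21 centromeres, but unevenly between chromosomes and arms. Chromosome 20 had the most, with 188, followed by chromosome 17 with 174, chromosome 18 with 151 and chromosome 8 with 143. Chromosomes 9 and 16 had 3 each, all on the p side. The p sides together held 540 regions and the q sides 949, and 1 region lay in a gap. Of the 42 sides, 34 held at least 1 region, with a median of 39.5 and a range from 3 to 120, the highest being the q side of chromosome 17. The p sides of the acrocentric chromosomes 13, 14, 15 and 22 held none, while that of chromosome 21 held 6. The q sides of chromosomes 1, 9 and 16, where large heterochromatin blocks adjoin the centromere, also held none, and neither did the p side of chromosome 11. How much assembled sequence each side offers was not analysed here, so a low count does not separate closed chromatin from missing sequence.

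**Figure D1:**
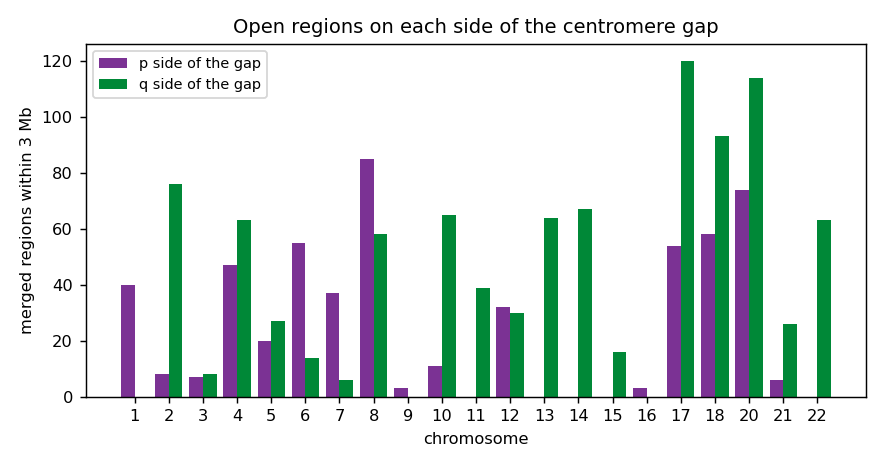
Merged regions within 3 Mb of the centromere gap (y axis, count) on the p side and the q side of 21 chromosomes (x axis). The q sides of chromosomes 17 and 20 stand highest with 120 and 114, and 8 of the 42 sides are empty.

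Peaks thinned out towards the gap in every library. Peak density, per Mb of nominal window length over all sides, was 3.94 ± 0.828 within the first 1 Mb, 8.44 ± 1.78 from 1 to 2 Mb and 9.13 ± 2.06 from 2 to 3 Mb (SD, n = 6 libraries). The first 1 Mb was lower than the 2 to 3 Mb band by 5.18 ± 1.25 peaks per Mb (SD, n = 6) and lower in 6 of 6 libraries, with p = 0.03125, the smallest this test can give (exact sign-flip permutation test over libraries, two-sided). The libraries share the genome and its gaps, so this test speaks of these libraries only. The density of merged regions was 4.24 per Mb in the first 0.5 Mb and 16.1 per Mb from 2.5 to 3 Mb. In the next band, from 3 to 6 Mb, 2056 regions gave 16.3 per Mb. The decline therefore lay mostly within 1.5 Mb of the gap edge. Unassembled sequence in the windows counts as length here, and its part in the decline was not tested. At equal numbers of peaks the difference was -3.21 per Mb (exact p = 0.03125). With 5 libraries the smallest p of this test is 0.0625, which each omission of 1 library gave.

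**Figure D2:**
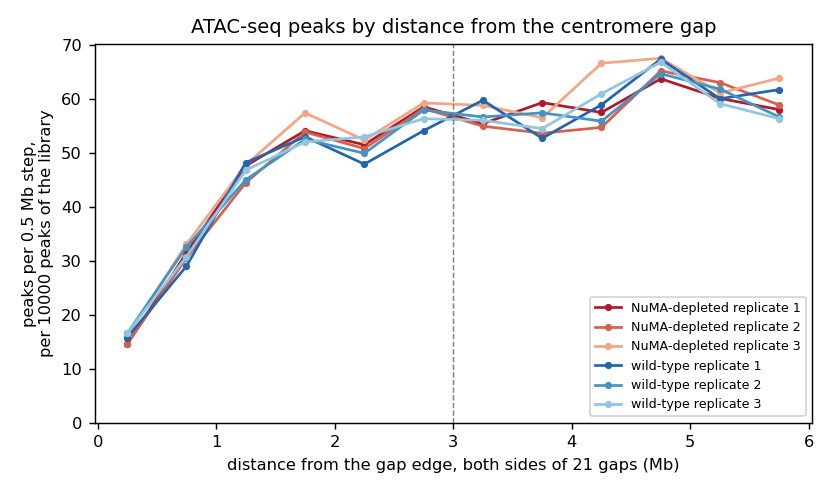
Peaks in each 0.5 Mb step per 10000 peaks of the library (y axis) by distance from the gap edge in Mb (x axis), both sides of 21 gaps pooled, with 1 line per library and a dashed line at the 3 Mb limit. The 6 lines run together, from between 14.6 and 16.6 in the first step to between 54.1 and 59.2 in the step from 2.5 to 3 Mb.

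The regions closest to the gaps were of mixed strength. Of the 34 regions that lay nearest to the gap on their side, 11 were called in all 6 libraries and 11 in 1 library. Among all members these shares were 30.2% and 25.5%, and in the rest of the series 28.8% and 25.1%. Within 0.1 Mb of an edge or in a gap there were 10 regions on 6 chromosomes, of which 5 (50%) were called in all 6 libraries. These are few regions, and the counts are descriptions without a test. On chromosome 3, q side, a region at 93560344 to 93560742, 60.5 kb from the edge, had folds of 7.53, 10.1 and 9.06 in NuMA-depleted libraries, against 11.5, 10.7 and 8.54 in wild-type libraries. These groups overlapped. On chromosome 4, q side, a region at 52708790 to 52709583, 9.19 kb from the edge, had folds of 8.05, 8.07 and 9.32 in NuMA-depleted libraries, against 7.69, 11.2 and 7.27 in wild-type libraries, again overlapping. The 1 region inside a gap also lay on chromosome 4, at 52697249 to 52697722. It ended 2278 bp short of the gap end, less than the rounding of the gap positions, so its place inside the true gap is not established. NuMA-depleted replicates 2 and 3 and wild-type replicate 1 called it, with folds of 4.50, 5.55 and 5.95. At some other edges the nearest region was called in 1 library. On chromosome 17, 35.2 kb from the q edge, a region at 25334989 to 25335336 was called in wild-type replicate 3 alone, with a fold of 6.22. A region 85.4 kb from the q edge of chromosome 10, at 42385239 to 42385607, was called in NuMA-depleted replicate 2 alone, with a fold of 8.19.

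A few regions stood on a high local background. Of the 1490 regions, 16 (1.07%) on 7 chromosomes had a median background ratio over 10. The 5 highest had ratios of 19.04 or more, and the next had 13.03. All 6 libraries called 9 of the 16, where 30.2% of all members and 28.8% of the rest were so called. That share was not computed for regions over 10 in the rest. A ratio over 10 was found at 184 regions (0.320%) in the rest of the series and at 2 (0.0973%) in the band from 3 to 6 Mb. These shares are descriptions, as regions are not replicates. Several of the 16 are neighbours, among them 3 on chromosome 20 between 30192871 and 30196626. The median fold of the 16 was 4.10, against 6.29 for the other members, while the median summit pileup was 46.75 fragments, against 17.5. The 16 were chosen by a background solved from these same folds and p-values. Their higher pileups and lower folds are therefore tied to that choice and are not a separate finding.

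The highest backgrounds belonged to a pair of neighbouring regions on the short arm of chromosome 21, 1.47 Mb from the edge, which share their surroundings and are not independent. At 9826902 to 9827553 the background ratio was 117, 102 and 111 in NuMA-depleted libraries, against 112, 135 and 144 in wild-type libraries. At 9825552 to 9826328 it was 115, 100.1 and 109.97 in NuMA-depleted, against 110.5, 134 and 142 in wild-type libraries. The groups overlapped at both. The fold at the second was the lowest mean of any member called in all 6 libraries, with 3.07, 3.40 and 2.79 in NuMA-depleted, against 3.19, 2.96 and 3.33 in wild-type libraries.

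On chromosome 6 a region of 2911 bp at 58776530 to 58779440 ended close to the p edge, its midpoint 22.02 kb away. Its background ratio was 48.8, 42.3 and 50.4 in NuMA-depleted, against 43.3, 38.3 and 46.8 in wild-type libraries. Its folds were 7.15, 7.89 and 7.65 in NuMA-depleted, against 8.59, 7.60 and 7.70 in wild-type libraries. On chromosome 1 the region nearest to the p edge, 15.1 kb away at 121484437 to 121485422, had ratios of 19.7, 14.3 and 19.04 in NuMA-depleted, against 19.04, 18.7 and 19.5 in wild-type libraries. The groups overlapped in background ratio at each of these.

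On chromosome 7, 0.869 Mb from the q edge, the region at 61968804 to 61969611 combined a high background with a mean fold of 14.5, close to the highest of any member called in all 6 libraries, 15.04. Its background ratio was 23.1, 18.8 and 24.8 in NuMA-depleted, against 20.1, 19.4 and 20.3 in wild-type libraries. Its folds were 15.2, 12.7 and 14.8 in NuMA-depleted, against 14.5, 16.2 and 13.7 in wild-type libraries. Both measures overlapped between the groups. Its summit pileup, not corrected for depth, did not overlap, with 377, 357 and 426 fragments in NuMA-depleted, against 275, 250 and 227 in wild-type libraries. Pileups did not overlap either at the chromosome 6 region, with 368, 488 and 441 in NuMA-depleted, against 341, 224 and 283 in wild-type libraries. They did overlap at the region of highest background on chromosome 21, with 778, 984 and 608 in NuMA-depleted, against 653, 755 and 791 in wild-type libraries, and at the remaining pair of these 5 regions. The estimated relative depths of the groups did not overlap, the NuMA-depleted libraries being the deeper by that estimate. The part of depth in these differences was not tested, and the share of all regions with pileups that did not overlap was not computed. No difference between the groups is therefore read from these raw pileups. Folds and background ratios overlapped at the chromosome 6 and chromosome 7 regions. Artefact-prone regions were not screened out, and whether these pileups come from repeat copies missing in the assembly was not tested.

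Peaks of the 16 high-background regions made up 0.0364%, 0.0305% and 0.0505% of the NuMA-depleted lists, against 0.0366%, 0.0439% and 0.0431% of the wild-type lists. The groups overlapped, with p = 0.8 (exact permutation test, two-sided, n = 3 each).

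**Figure D3:**
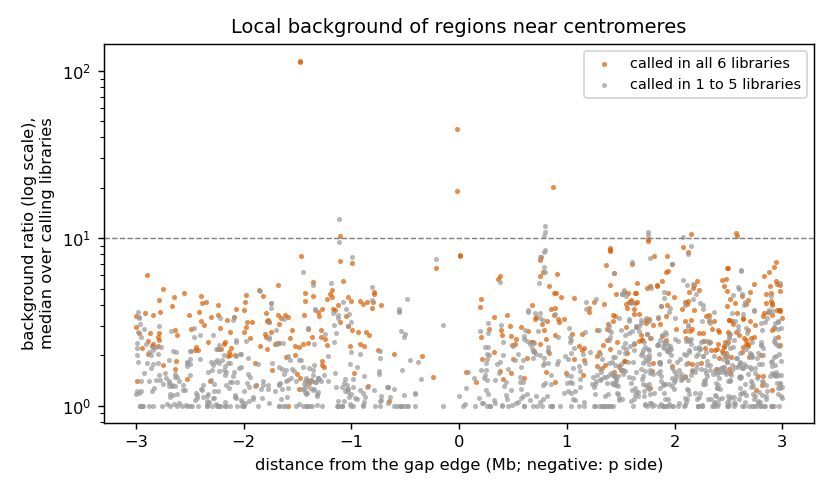
Background ratio of each of the 1490 regions (y axis, log scale, median over the libraries that called it) by distance from the gap edge in Mb (x axis, negative on the p side), in orange where all 6 libraries called the region. The dashed line marks a ratio of 10; 16 regions lie above it, among them the pair on chromosome 21 above 100 and the chromosome 6 region at 45.0 beside the gap.

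The 10 strongest regions called in all 6 libraries, ranked by their weakest q (the caller's p-value adjusted for multiple testing), were the 5 described above and another 5 with a lower background. On chromosome 20, 0.211 Mb from the p edge at 26188833 to 26189354, folds were 14.1, 11.0 and 12.7 in NuMA-depleted, against 14.2, 13.2 and 11.2 in wild-type libraries. The region nearest to that edge, at 26189807 to 26190251, was called in wild-type replicates 2 and 3 alone, with folds of 6.77 and 6.17. Chromosome 18 at 14132091 to 14132706 had the highest mean fold, with 15.4, 14.4 and 16.7 in NuMA-depleted, against 13.3, 17.1 and 13.3 in wild-type libraries. Its background ratio had a median of 2.58. The groups overlapped at both of the regions called in all 6 libraries. The other 3 were a pair on chromosome 14 (21978973 to 21980033, and 20881014 to 20882104) and one on chromosome 10 (43133324 to 43134407), with folds from 9.66 to 15.01 in single libraries. The 5 widest regions measured from 2397 to 2914 bp, and all were called in every library. The longest lay on chromosome 14 at 21150086 to 21152999. The others were the chromosome 6 region above and those on chromosome 6 (64281720 to 64284411), chromosome 5 (52283358 to 52285761) and chromosome 10 (43248580 to 43250976).

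The members were shared between libraries about as often as regions elsewhere, as a description without a test. Of the 1490, 450 (30.2%) were called in all 6 libraries and 380 (25.5%) in 1 library, against 28.8% and 25.1% of the rest of the series and 31.1% and 24.1% of the band from 3 to 6 Mb. Another 130 (8.72%) were missing in NuMA-depleted replicate 3 alone, against 8.69% of all regions. The members had a median width of 532.5 bp and together spanned 0.944 Mb; those called in all 6 libraries had a median of 902.5 bp, and those called in 1 library 300 bp.

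Peaks near centromeres had a slightly higher fold and were slightly wider than the rest, but neither difference passed the threshold of 0.05 after adjustment. The median fold was 6.99 near centromeres and 6.75 in the rest, a difference of 0.238 ± 0.0547 (SD, n = 6), higher in 6 of 6 libraries (p = 0.03125, exact sign-flip permutation test, two-sided, adjusted over 4 comparisons 0.0625). The median width was 480.25 bp near centromeres against 464 bp in the rest, a difference of 16.25 ± 8.09 bp (SD, n = 6), also in 6 of 6 libraries with the same exact p and the same adjusted p. The smallest p of this test is 0.03125. With fold and width alone at that value, the adjustment over 4 comparisons could not give less than 0.0625. The libraries share the genome, so these tests speak of these libraries only. The fold difference was 0.129 at equal numbers of peaks and 0.157 in windows of 5 Mb. Against the band from 3 to 6 Mb the fold difference was 0.152, with an adjusted p of 0.333 in the same exact permutation test, and the width difference turned to -3.42 bp. Without the acrocentric chromosomes the width difference was 7.17 bp. The median background ratio was 2.32 near centromeres and 2.32 in the rest (exact p = 1), and without the acrocentric chromosomes the difference was -0.0662 (exact sign-flip p = 0.03125, adjusted 0.0625). The percent of peaks called in no other library was 6.45% near centromeres and 6.32% in the rest (exact p = 0.46875, adjusted 0.625).

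The share of peaks near centromeres did not differ between NuMA-depleted and wild-type cells beyond the spread of the libraries. Peaks in the 1490 regions made up 2.58%, 2.52% and 2.66% of the NuMA-depleted lists, against 2.48%, 2.54% and 2.55% of the wild-type lists, so the groups overlapped. The means were 2.59% ± 0.0679 and 2.53% ± 0.0407 (SD, n = 3 each), a difference of 0.0606 percentage points with p = 0.3 (two-sided exact permutation test, which cannot go below 0.1 with 3 libraries a group). With the strongest 21783 peaks of each library the difference turned to -0.00306 percentage points. The number of regions called was 974, 1156 and 565 in NuMA-depleted, against 864, 958 and 822 in wild-type libraries. The longest list had the most and the shortest the fewest. The means were 898 ± 303 and 881 ± 69.6 (SD, n = 3 each, exact permutation p = 0.9).

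**Figure D4:**
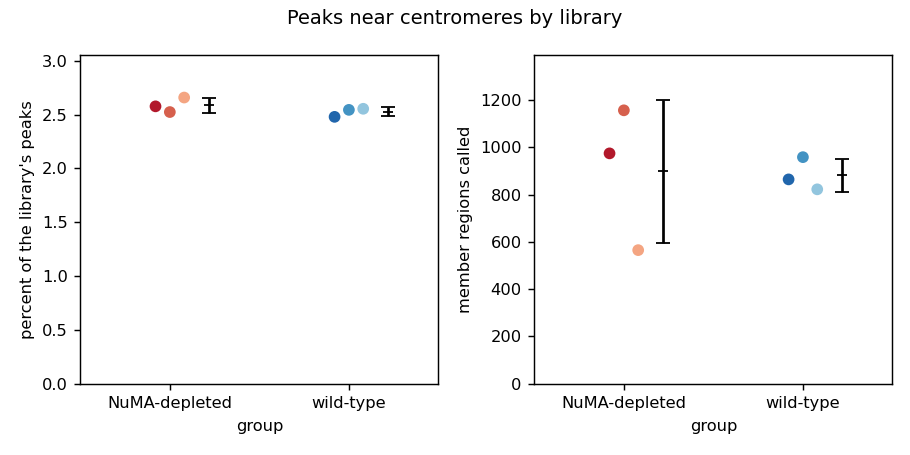
Share of each library's peaks that lay in the 1490 regions (left, percent) and number of those regions called (right, count) in NuMA-depleted and wild-type libraries; points are libraries, bars are mean ± SD of 3. The shares lie between 2.48% and 2.66% in all 6 libraries, while the number called runs from 565 to 1156.

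The groups overlapped in each distance band, while the background ratio was lower in the NuMA-depleted libraries both near centromeres and in the rest. The first 1 Mb held 0.467% ± 0.0211 of NuMA-depleted and 0.471% ± 0.0218 of wild-type peaks (SD, n = 3 each, exact permutation p = 1). From 1 to 2 Mb it was 1.02% ± 0.0343 and 0.991% ± 0.0186, and from 2 to 3 Mb 1.10% ± 0.0131 and 1.06% ± 0.0384 (SD, n = 3 each). Neither differed beyond the spread (exact permutation p = 0.3 and 0.2, adjusted over the 3 bands 0.45 for each). The median background ratio near centromeres was 2.16 ± 0.110 in NuMA-depleted, against 2.47 ± 0.16 in wild-type libraries (SD, n = 3 each, exact permutation p = 0.1), with no overlap. The groups overlapped at equal numbers of peaks (difference -0.413) and in windows of 2 Mb (-0.330), with an exact permutation p = 0.2 each. In the rest of the genome it was 2.17 ± 0.0785 and 2.47 ± 0.133 (SD, n = 3 each, exact permutation p = 0.1), so the differences were -0.316 near centromeres and -0.298 in the rest. The NuMA-depleted libraries were also the deeper ones by estimated relative depth, and the part of depth was not tested.

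By chromosome, 4 of the 21 windows (19%) had shares that did not overlap between the groups, against 9.29% of 495 stretches of 6 Mb across the genome. On chromosome 12 the share was 0.107%, 0.102% and 0.101% in NuMA-depleted libraries, against 0.0732%, 0.0905% and 0.0923% in wild-type libraries, higher in every NuMA-depleted library. On chromosome 2 it was 0.148%, 0.150% and 0.129% in NuMA-depleted, against 0.158%, 0.163% and 0.157% in wild-type libraries, lower in every NuMA-depleted library. Chromosome 21 had 0.0416%, 0.0392% and 0.0321% in NuMA-depleted, against 0.0479%, 0.0517% and 0.0431% in wild-type libraries. That window held 16, 18 and 7 peaks in the NuMA-depleted lists, against 17, 20 and 14 in the wild-type lists. On chromosome 3, where NuMA-depleted libraries had 10, 10 and 6 peaks and wild-type libraries 10, 11 and 9, the mean shares were 0.0251% ± 0.00298 and 0.0281% ± 0.000377 (SD, n = 3 each). Each of the 4 had p = 0.1, and an adjusted p of 0.525 over 21 chromosomes (exact permutation test, two-sided, Benjamini-Hochberg), in a design in which no chromosome could have passed. With equal numbers of peaks 0 of 21 windows had this pattern, against 7.27% of the stretches. With a −log10 q of at least 5 it was 1 (4.76%), against 10.1%. The excess over the genome thus did not hold under these settings, nor in windows of 2 Mb (5% against 9.83%). Without each library in turn it remained, with 23.8% to 28.6% of windows against 18.2% to 23.8% of stretches, higher in each case. Those cases share most of their libraries.

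**Figure D5:**
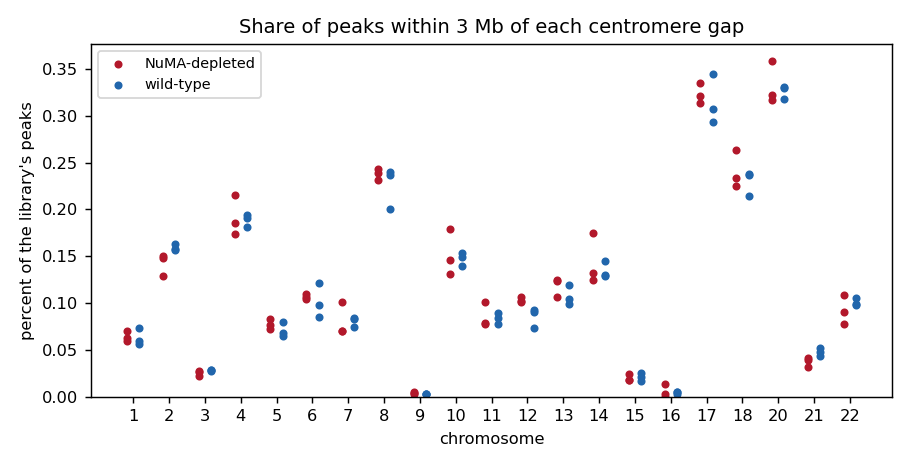
Share of each library's peaks (y axis, percent) within 3 Mb of the centromere gap of each chromosome (x axis), with NuMA-depleted libraries in red left of wild-type libraries in blue. The groups overlap on 17 of 21 chromosomes and lie apart on chromosomes 2, 3, 12 and 21.

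In bins of 1 Mb no change in peak share near centromeres was called. Of 2022 bins fitted across the genome with limma, 0 (0%) had an adjusted p under 0.05, and neither did any of the 56 bins near centromeres. An unadjusted p under 0.05 was found in 5 of the 56 (8.93%), against 5.64% of all bins. The order turned at equal numbers of peaks, with 1 of 44 (2.27%) against 8.05%, and in bins of 250 kb, with 3.68% against 4.60%. Without single libraries the count ran from 2 to 8. It was 4 (7.02%, against 4.90% of all) without NuMA-depleted replicate 1, and 8 (14.8%, against 8.09%) without NuMA-depleted replicate 2. Without NuMA-depleted replicate 3 it was 3 (5.085%, against 8.77%). It was 3 (5.36%, against 4.06%) without wild-type replicate 1, and 2 without wild-type replicate 2 (3.64%, against 3.92%) and without wild-type replicate 3 (3.51%, against 3.92%). Chromosome 2 had the lowest p near a centromere, in its bin between 97 and 98 Mb, with 18, 23 and 9 peaks in NuMA-depleted libraries against 21, 25 and 19 in wild-type ones. The log2 difference in share was -0.39 (SE 0.132, limma adjusted p = 0.872). Next were the bins from 87 to 88 Mb on chromosome 3, with a log2 difference of -0.82 (SE 0.342), and from 55 to 56 Mb on chromosome 4, with -0.47 (SE 0.213). The 3 bins with a higher share in NuMA-depleted libraries and the smallest p lay on chromosome 1 from 119 to 120 Mb, with 8, 8 and 5 peaks in NuMA-depleted against 4, 4 and 6 in wild-type libraries, on chromosome 17 from 19 to 20 Mb and on chromosome 12 from 32 to 33 Mb. Their log2 differences were 0.60 (SE 0.283), 0.28 (SE 0.136) and 0.33 (SE 0.161). The limma adjusted p of these 6 bins ranged from 0.872 to 0.877.

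Few regions near centromeres were called in 1 group alone, and which group had more of them depended on the libraries used. There were 14 called in all 3 NuMA-depleted and no wild-type library (0.94% of the members), where 0.625% of all regions had that pattern. Those called in all 3 wild-type and no NuMA-depleted library numbered 4 (0.268%), where 0.592% of all regions did. When 2 of 3 libraries sufficed, the counts were 83 (5.57%) and 37 (2.48%), where all regions gave 5.04% and 2.85%, so the members then lay near the background in both directions. With equal numbers of peaks the counts were 9 (1.02%) and 5 (0.566%), where all regions gave 1.26% and 0.975%. Leaving out a library loosens the requirement, and the order of the counts turned in 3 of 6 cases. There were 15 depleted-only regions (1.10% of members and 0.803% of all regions) and 19 wild-type-only ones (1.39% and 2.39%) without NuMA-depleted replicate 2. Without wild-type replicate 1 there were 15 (1.05% of members and 0.998% of all) and 16 (1.12% and 1.38%), and without wild-type replicate 3 there were 20 (1.37% and 0.923%) and 22 (1.51% and 1.69%). The order held in the other 3. Without NuMA-depleted replicate 3 the counts were 73 depleted-only (4.94% of members and 4.595% of all) and 4 wild-type-only (0.271% and 0.632%), and without NuMA-depleted replicate 1 they were 23 (1.62% and 1.035%) and 9 (0.633% and 1.08%). Without wild-type replicate 2 they were 20 (1.41% and 1.25%) and 6 (0.422% and 1.10%). In all 6 cases the share of depleted-only regions was higher among the members than among all regions, and that of wild-type-only regions lower. These cases reuse the libraries and group-only regions of the full comparison, so they are not separate support. At equal numbers of peaks both shares were lower among the members. By estimated relative depth the NuMA-depleted libraries were the deeper ones, and the part of depth in these counts was not tested. Absence from a list does not show closed chromatin.

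The 14 depleted-only regions lay on 9 chromosomes, 4 of them on chromosome 20, and the nearest lay 0.659 Mb from a gap edge. The strongest, on chromosome 20 at 31177019 to 31177594, had folds of 7.63, 7.78 and 6.25 in NuMA-depleted libraries. The region on chromosome 6 (64516000 to 64516681) had 7.44, 6.25 and 8.27, and another on chromosome 20 (23521483 to 23522468) had 8.55, 8.23 and 6.52. The fourth, on chromosome 18 at 12606817 to 12607586, had 8.05, 7.75 and 6.90. These 4 had a −log10 q of at least 9.12 in each of the 3 libraries. The next 8 in strength were weaker, with a lowest −log10 q between 3.81 and 5.49. Chromosome 8 had a pair (43066056 to 43066723, and 41981207 to 41981863). The others were on chromosome 14 (20730812 to 20731250), chromosome 2 (95958359 to 95959054), chromosome 20 (32391778 to 32392090), chromosome 13 (20944953 to 20945458), chromosome 17 (19844167 to 19844571) and chromosome 4 (47533418 to 47533910). Over all 14, folds in single libraries ran from 3.75 to 8.55, the median width was 565 bp and the median background ratio 1.596, and none of the 16 high-background regions was among them.

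The 4 wild-type-only regions lay on 4 chromosomes. On chromosome 10, at 38317058 to 38317541 and 0.983 Mb from the p edge, folds were 6.33, 8.01 and 7.37 in the wild-type libraries, on summits of 11, 13 and 13 fragments. The others were on chromosome 22 (18414228 to 18414553), chromosome 8 (42373882 to 42374768) and chromosome 4 (48256491 to 48256864), with folds from 4.35 to 6.31. Their summits held 8 to 12 fragments. With a common smallest peak width of 264 bp there were 12 depleted-only regions (0.877% of members and 0.705% of all) and 1 wild-type-only region (0.0731% and 0.353%). Requiring a call among the strongest 21783 peaks in 1 group and none at all in the other left 3 depleted-only regions (0.201% of members and 0.105% of all) and 0 wild-type-only regions, where 0.0594% of all regions had that pattern.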

How the data were processed

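The submitters' processing notes name Trim Galore, Picard and Bowtie2 2.4.1, with hg19 as the build. The peak names in the deposited files record a macs2 folder. Read filters, any transposase shift and the caller's settings and version were not given in the sources used here. Each deposited list belongs to 1 sample and gives intervals and summits, a fold, −log10 p and −log10 q values and a score. The fold is a linear ratio over local background, with 1 added to pileup and background. The score follows 10 times the −log10 q and was not used. The lowest deposited −log10 q was 2.00.

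Each fold and p-value was solved for a whole-number fragment pileup and a Poisson background. All peaks were solved within 0.01 on the −log10 p scale, with a largest mismatch of 0.000194. Relative depth was the smallest background divided by the smallest peak width, which assumes that this width equals the caller's fragment length. Pileups are counts of fragments whose duplicates may not be independent molecules.

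Groups came from the genotype labels. Libraries were compared with exact permutation tests over 20 assignments or 64 sign flips. Peaks per 1 Mb bin went into limma 3.58.1 (R 4.3.3) as log2 shares (pseudocount 0.5, bins averaging 5 peaks or more, Benjamini-Hochberg over all bins). On simulated Poisson counts for this comparison it recovered 58.8% of 194 bins changed 2-fold, with 2 false calls, and 97.25% of 182 changed 4-fold, with 13 false calls, among 2003 bins. The simulated libraries differed only by list length, the set changes and Poisson noise. These rates therefore do not give the power in the deposited lists, whose replicates may vary otherwise. Other steps used Python 3.11.15, numpy 2.4.6, pandas 2.3.3 and scipy 1.17.1.

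Named were the 10 strongest shared regions, up to 12 group-only regions in each direction, the region in a gap, those nearest to the gap edges (not all are printed), the 5 widest, the 5 with the highest background, the neighbours of the 3 Mb limit, and 3 bins in each direction. The members, lists and tests were chosen with earlier results of these data known. Gene names and sequences are not given, since no hg19 genome or annotation was used here.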

Additional observations from a re-analysis of the deposited data

How the results depend on the processing

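Results were recomputed at equal numbers of peaks, with a −log10 q of 5 or more, with windows of 2 or 5 Mb, without the acrocentric chromosomes, with a half-overlap rule (without effect, as a merged region contains its peaks whole), a replicate block, other bins, and leaving out each library. The exclusion of members within 100 kb of a gap edge, the common smallest width, the mixed thresholds and the equal numbers without NuMA-depleted replicate 3 were chosen after seeing the data. Of 164 recomputed values, 117 kept their direction and their side of the threshold or, for counts, stayed within 1.5 times. That total includes values wholly or partly fixed in advance. The half-overlap rule returned the main values. With a library left out, fold and width could change direction, but their exact test could not reach the threshold. Bin counts in windows of 2 or 5 Mb and without the acrocentric chromosomes reused the main fit, which called no bin. The total is therefore not a measure of stability. Where a value changed, the cause was not tested.

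The difference in the share of peaks near centromeres, 0.0606 percentage points, was -0.00306 at equal numbers and 0.0245 to 0.0918 without each library. The difference in regions called, 17, was -2.33 at equal numbers and -112 to 184 without each library. Depleted-only regions, 14 (0.94% of members against 0.625% of all regions), numbered 9 at equal numbers (1.02% against 1.26%), 8 and 25 in windows of 2 and 5 Mb (0.955% and 0.882% against 0.625%), 83 when 2 of 3 libraries sufficed (5.57% against 5.04%), 25 at equal numbers without NuMA-depleted replicate 3 (2.06% against 2.75%), 3 with mixed thresholds (0.201% against 0.105%) and 15 to 73 without each library. Wild-type-only regions, 4 (0.268% against 0.592%), numbered 9 in windows of 5 Mb (0.3175% against 0.592%), 37 when 2 of 3 libraries sufficed (2.48% against 2.85%), 13 at equal numbers without NuMA-depleted replicate 3 (1.07% against 1.84%), 1 with the common smallest width (0.0731% against 0.353%), 0 with mixed thresholds (against 0.0594%) and 4 to 22 without each library. Windows that separated the groups, 4 (19% against 9.29% of stretches), numbered 1 with a −log10 q of at least 5 (4.76% against 10.1%), 0 at equal numbers (against 7.27%), 1 and 2 in windows of 2 and 5 Mb (5% and 9.52% against 9.83% and 9.45% of stretches of like length) and 5 to 6 without each library (23.8% to 28.6% against 18.2% to 23.8%).

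The difference in the median background ratio between centromeres and the rest, 0.000114, was -0.00611 with a −log10 q of at least 5, -0.00546 at equal numbers, -0.0662 without acrocentric chromosomes, -0.0323 against the next band, -0.00586 without members within 100 kb and -0.0144 to 0.0121 without each library. The difference in single-library peaks, 0.124 percentage points, was -0.330 at equal numbers, -0.198 and -0.168 in windows of 2 and 5 Mb and -0.254 to 0.183 without each library. The fold difference, 0.238, was 0.129 at equal numbers. The width difference was -3.42 bp against the next band. The density difference was -3.21 peaks per Mb at equal numbers and ranged from -5.57 to -4.82 peaks per Mb without each library, with p = 0.0625 (exact), the smallest that 5 libraries allow.

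Same-numbered libraries of the groups had correlations of -0.0793, 0.0919 and 0.0012 in their deviations over bins. Such values cannot show whether libraries of the same number were handled together, and the labels do not say. With the replicate block the share difference had p = 0.5 in an exact sign-flip permutation test of 3 pairs, whose smallest p is 0.25, and limma called 0 bins near centromeres, with 4 at an unadjusted p under 0.05. The block changed no call. Changed bins numbered 0 in every fit. A depth in reads was not known, so regions missing from a list may be below its reach.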

Other observations

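Single-library regions near centromeres included strong calls. Of the 380 regions called in 1 library, 44 (11.6%) had a −log10 q of at least 10, against 11.7% of the single-library regions in the rest of the series, so the share was alike. Of the 44, NuMA-depleted replicates 1, 2 and 3 held 9, 26 and 0, and wild-type replicates 1, 2 and 3 held 3, 5 and 1. The strongest lay on chromosome 12 at 39521164 to 39521600, where NuMA-depleted replicate 2 had a fold of 9.47 on a summit of 38 fragments and no other library had a peak. The next, also in NuMA-depleted replicate 2 alone, were on chromosome 9 (44435937 to 44436280, fold 11.9, 28 fragments) and chromosome 2 (97175056 to 97175533, fold 7.02, 46 fragments). The chromosome 9 region is 1 of only 3 members near that centromere. These regions were chosen after their values were seen, and the library with the longest list held most of them.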
